A study of Homo sapiens with 16 samples.

Results

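The BCL2 family controls apoptosis through the mitochondria, and 10 of its genes are described here in the human myeloma cell line NCI-H929: BCL2, BCL2L1, MCL1, BAX, BAK1, BCL2L11, BBC3, PMAIP1, BMF and BID. They were found by matching the Ensembl identifiers of the deposited count tables to gene symbols, which gave 10 of 10 genes among 57500. The data are bulk RNA sequencing of 16 libraries, 4 in each of 4 groups. In the first experiment cells received p300 degrader 27, a small molecule that removes the p300 protein, at 3 nM for 6 h, and were compared with cells given the solvent DMSO. The second experiment set cells labelled p300 KO against cells labelled NTC; the labels give neither how the knockout was made nor whether it is 1 clone, and they do not spell out NTC. All 16 libraries carry batch label 1, and no other treatment, allele or agent is listed for any group. Nothing in the labels says that the 4 libraries of a group came from separate cultures, and the p-values then reflect no more than the spread between libraries, which may be technical.

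Survival proteins of the family (BCL2, BCL-XL from BCL2L1, and MCL1) hold the pore formers BAX and BAK in check at the outer mitochondrial membrane. BH3-only proteins carry stress signals to them: BIM (BCL2L11), PUMA (BBC3), NOXA (PMAIP1), BMF and BID bind the survival proteins, and some also activate BAX and BAK directly. Once BAX or BAK opens the membrane, cytochrome c leaves the mitochondria and caspases are activated. Plasma cells and myeloma cells are known for a strong need of MCL1, and MCL1 and BCL2 are drug targets in this disease. The p300 protein, encoded by EP300, adds acetyl groups to histones and other proteins and is a coactivator of transcription.

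The libraries held 12.6 to 23.1 M counts (M, mega). Genes of the mitochondrial genome took 64.87% of the counts in degrader replicate 2 and 47.74% in p300 KO replicate 1, against 5.99% to 23.49% in the other 14 libraries, and every fit below was therefore made with and without these 2 libraries. EP300 mRNA was 3.29, 2.79, 2.5 and 2.72 RPKM (reads scaled by exon length and library size) in the KO libraries, against 7.40, 6.82, 6.70 and 7.01 RPKM in NTC. With the degrader EP300 mRNA was at 4.4, 12.1, 4.24 and 4.42 RPKM, above the 3.18, 4.03, 3.83 and 3.67 RPKM in DMSO. That rise missed an adjusted p under 0.05 in edgeR, at 0.249 with all libraries and 0.0531 without degrader replicate 2. These RNA data hold no measure of the p300 protein, so its loss with the degrader was not checked here. All 8 plasma cell markers on the list had a median over the 16 libraries of at least 1 RPKM, whereas no gene of the lists for earlier B cells, myeloid cells, fibroblasts and erythroid cells did. Of 3 epithelial genes KRT18 did, and the summed level of that list was 2.72 to 3.9 RPKM with the degrader, 2.51 to 3.97 in DMSO, 3.82 to 4.11 in the KO and 3.48 to 3.73 in NTC. Of the T cell list, CD3E and TRAC did, and CD3D and CD3G stayed below 1 RPKM in all libraries; its summed level was 5.46 to 10.4 RPKM with the degrader and 14.3 to 16.1 RPKM in DMSO, and 12 to 14.8 RPKM in the KO and 20.3 to 22.7 RPKM in NTC. In NTC alone, BACH2 of the earlier B cell list had a mean of 1.52 RPKM and CSF1R of the myeloid list 1.41 RPKM. The summed earlier B cell level was 1.55 to 5.92 RPKM with the degrader and 1.82 to 2.4 in DMSO. It was 1.94 to 3.13 RPKM in the KO and 3.07 to 3.45 in NTC. The part of these markers, and of the mitochondrial share, in the results below was not tested. In such bulk RNA, fewer cells of a type and less RNA per cell cannot be told apart.

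Levels are given as RPKM over the summed exon length of each gene, scaled with TMM (a correction for library composition) over the 16 libraries. On this per-length scale MCL1 was the highest of the 10 genes in every group, at 73.2 ± 15.2 RPKM with the degrader, 117 ± 12.5 in DMSO, 216 ± 50.4 in the KO and 232 ± 8.55 in NTC (SD, n = 4 each). The pore formers BAX and BAK1 came next in all groups. In the KO, BMF was close to BAK1, with means of 26.4 ± 3.06 and 28.6 ± 6.26 RPKM. BCL2, the founding member, was at the low end with 0.557 ± 0.0418 RPKM with the degrader, 0.830 ± 0.0813 in DMSO, 1.07 ± 0.192 in the KO and 1.86 ± 0.297 in NTC. PMAIP1 was lower still in the KO and NTC, at 0.525 ± 0.125 and 0.816 ± 0.141 RPKM. The least counted genes were PMAIP1, with 19 to 80 counts per library, and BBC3, with 22 to 185; MCL1 had 1219 to 27063.

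**Figure D1:**
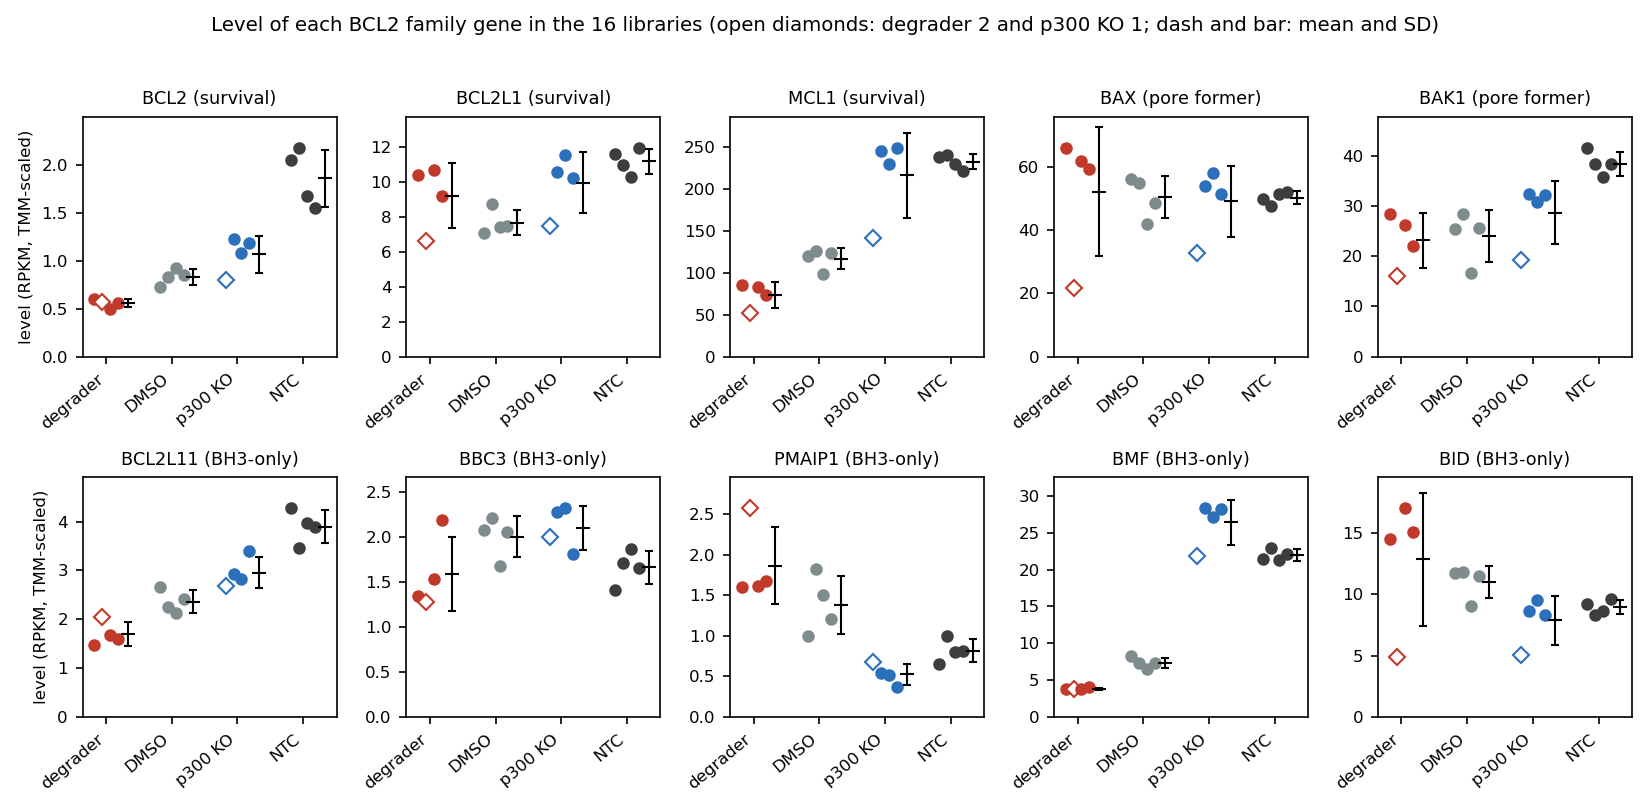
Level of each of the 10 genes (vertical axis, RPKM scaled with TMM over 16 libraries) in each library of the 4 groups (horizontal axis); dashes and bars are the mean and SD of 4 libraries, and open diamonds mark degrader replicate 2 and p300 KO replicate 1. MCL1, BMF, BCL2 and BCL2L11 sit lower in both groups of the degrader experiment than in NTC. The open diamonds are the lowest points of their group for MCL1, BCL2L1, BAX, BAK1 and BID.

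The order of the 4 groups differed between genes. From low to high it was degrader, DMSO, KO and NTC for BCL2, MCL1, BCL2L11 and BAK1, and degrader, DMSO, NTC and KO for BMF. The ranges of neighbouring groups in that order did not overlap for BCL2L11; they overlapped between the KO and DMSO for BCL2, between the KO and NTC for MCL1, and between the KO and NTC for BMF. Without degrader replicate 2 and p300 KO replicate 1, the pair of KO and NTC for MCL1 was the only overlap left among BCL2, MCL1, BCL2L11 and BMF. For BAK1 neighbours overlapped except for the KO and NTC. PMAIP1 and BID had the reverse trend, with the KO lowest, then NTC, DMSO and the degrader, but each neighbour overlapped the next. Neighbours of BCL2L1 (DMSO, degrader, KO, NTC) and BBC3 (degrader, NTC, DMSO, KO) overlapped too. Once degrader replicate 2 and p300 KO replicate 1 were left out, the degrader and DMSO were apart for BID and BCL2L1. NTC and the KO were then apart for PMAIP1, and the KO and DMSO for BAK1. The neighbours of BBC3 still overlapped. BMF differed most between the control groups of the experiments, at 7.32 ± 0.737 RPKM in DMSO and 21.9 ± 0.800 in NTC. DMSO and NTC cells belong to different experiments, so condition and experiment cannot be told apart in that comparison. BAX levels with all libraries, by contrast, overlapped in all 4 groups, with means of 52.1 with the degrader, 50.4 in DMSO, 49.1 in the KO and 50.3 RPKM in NTC. Without degrader replicate 2 and p300 KO replicate 1, BAX means were 62.3 RPKM with the degrader and 54.5 in the KO. The degrader range then lay above that of DMSO.

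The first comparison asked how 6 h of the degrader changed the family. BMF, a BH3-only gene, fell to 0.531 times its level in DMSO, and BCL2, a survival gene, fell to 0.675 times. In edgeR 0 of the 10 genes were called higher with all 8 libraries, also at an unadjusted p under 0.05, while limma voom with sample weights called 3 higher and DESeq2 0. Over all genes, limma voom called 3721 higher and DESeq2 793. MCL1 and BCL2L11 also had ranges below those of DMSO, which made 4 of 10 such genes against 9.66% of all genes tested. Both missed the threshold in edgeR. That threshold was an adjusted p under 0.05 in edgeR's quasi-likelihood test with Benjamini-Hochberg adjustment over all genes tested. With all 8 libraries DESeq2 called both lower (adjusted p = 0.0063 for MCL1 and 0.0212 for BCL2L11). So did limma voom (adjusted p = 2.32e-05 and 8.80e-05). Over all genes DESeq2 called 1003 lower and limma voom 3895. In edgeR without degrader replicate 2, BCL2, MCL1, BCL2L11 and BMF were called lower and BCL2L1, BAX and BID higher. Thus edgeR called 2 of 10 genes with all libraries, both lower. Of all genes tested 4.76% were called, 1.64% higher and 3.12% lower, and total count scaling split the calls over all genes into 19 higher and 145 lower, against 260 and 495 with TMM. Without that library it was 7 of 10, 3 higher and 4 lower, where the background was 38.5%, with 18.2% higher and 20.3% lower. When libraries were scaled by total counts, 0 of the 10 were called in edgeR and 3 had an unadjusted p under 0.05. The members' median log2 fold change was −0.17 against 0.05 over all genes with all libraries, and −0.09 against −0.04 without degrader replicate 2.

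Among the survival genes, BCL2 was at 0.599, 0.566, 0.499 and 0.564 RPKM with the degrader and at 0.724, 0.826, 0.920 and 0.851 RPKM in DMSO. All 4 treated libraries lay below all 4 DMSO libraries, degrader replicate 2 included. BCL2 changed by −0.57 ± 0.13 (SE; adjusted p = 0.0461) on the log2 scale, and by −0.59 ± 0.13 (adjusted p = 0.00269) without degrader replicate 2. With any of the other 7 libraries left out the call was lost, with adjusted p up to 0.168, and it was also lost without the filter on low counts (adjusted p = 0.215). MCL1, whose protein binds BAK, BIM and NOXA, was at 85.0, 51.6, 82.5 and 73.6 RPKM with the degrader, against 120.0, 126, 98.4 and 123 RPKM in DMSO. The groups were apart, with the lowest value in degrader replicate 2. In edgeR the log2 fold change of MCL1 was −0.66 ± 0.17 (adjusted p = 0.0658) with all libraries and −0.55 ± 0.10 (adjusted p = 9.34e-04) without that replicate. DESeq2 and limma voom called MCL1 lower with all libraries. BCL2L1 was at 10.4, 6.64, 10.7 and 9.24 RPKM with the degrader and 7.07, 8.74, 7.45 and 7.51 RPKM in DMSO. Degrader replicate 2 was the lowest of all 8 and the other 3 treated libraries were the highest. The log2 fold change was 0.28 ± 0.15 (adjusted p = 0.335), and 0.39 ± 0.10 (adjusted p = 0.0066) without replicate 2. Of the exon bases of BCL2L1, 43.0% are shared with ABALON, a gene on the opposite strand. ABALON had 339 counts against 10686 for BCL2L1 over the 16 libraries, and it is not stated whether counting used strand.

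In edgeR neither pore former was called with all libraries, whereas limma voom called BAX higher (0.30, adjusted p = 0.0168). BAX was at 65.9, 21.7, 61.7 and 59.2 RPKM with the degrader and at 56.3, 54.8, 41.8 and 48.7 RPKM in DMSO. Degrader replicate 2 had less than any other library of the series, and the other 3 treated libraries lay above DMSO. The log2 fold change was 0.06 ± 0.30 with all libraries and 0.30 ± 0.10 without that one (adjusted p = 0.94 and 0.0333). BAK1 was at 28.3, 16.1, 26.2 and 22.0 RPKM with the degrader, against 25.4, 28.5, 16.6 and 25.7 RPKM in DMSO, with overlapping groups. Its log2 fold change was −0.04 (95% interval −0.51 to 0.43), and 0.08 (−0.23 to 0.39) without degrader replicate 2.

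BMF and BCL2L11 encode BH3-only proteins that bind dynein light chains. The bases before their transcription starts are shown because both genes lay below DMSO in all 4 degrader libraries, whereas in the KO BMF was called higher and BCL2L11 lower. They are from RefSeq (GRCh38.p14), 5′ to 3′ on each gene's own strand, limited to bases outside exons, with the motifs in capitals. BMF is chr15:40108893-40109129, minus strand, and BCL2L11 is chr2:111120664-111120913, plus strand.
BMF: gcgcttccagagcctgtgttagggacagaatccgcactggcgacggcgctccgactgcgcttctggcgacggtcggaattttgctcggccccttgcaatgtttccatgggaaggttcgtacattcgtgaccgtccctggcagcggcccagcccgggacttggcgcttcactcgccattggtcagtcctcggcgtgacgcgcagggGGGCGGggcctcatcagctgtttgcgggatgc
BCL2L11: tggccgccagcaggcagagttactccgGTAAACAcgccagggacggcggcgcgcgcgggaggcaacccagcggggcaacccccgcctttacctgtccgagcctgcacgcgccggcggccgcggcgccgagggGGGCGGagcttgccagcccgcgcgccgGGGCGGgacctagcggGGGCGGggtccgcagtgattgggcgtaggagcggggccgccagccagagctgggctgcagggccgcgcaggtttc
Of 8 motifs searched on both strands in the 250 bases before the start, this BMF window held 1 GC box (GGGCGG) and the BCL2L11 window 3 GC boxes and 1 forkhead motif (GTAAACA). Over 35116 windows of that length, 42.6% held the GC box and 2.98% the forkhead motif. The other motifs were CACGTG (6.34% of windows), TGACGTCA (1.65%), TGANTCA (6.57%), GGAA and GAAA spaced by any 2 bases (2.41%), TATAAA (10.7%) and GGG and TTCC spaced by any 3 bases (5.67%), and neither window held one. BMF has a second window, at chr15:40106967-40107216, where 0 GENCODE 29 transcripts start; it held 1 match to GGAA and GAAA spaced by 2 bases and no GC box. Of the 10 genes 9 had at least 1 such window; that of BCL2 lay wholly in an annotated exon and held none of the 8 motifs. The BAX window held 4 copies of CACGTG, some of them in its 60 bases annotated as exon. The BBC3 window and some BID windows held 1 copy. The share of all windows with several copies was not computed.

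BMF levels were 3.76, 3.77, 3.84 and 4.02 RPKM with the degrader, against 8.27, 7.26, 6.46 and 7.29 RPKM in DMSO. The groups were apart, and the treated libraries, degrader replicate 2 included, had an SD of 0.118 RPKM, the lowest of the 4 groups. For BMF the log2 fold change was −0.91 ± 0.10 (adjusted p = 0.00264), −0.92 ± 0.10 (adjusted p = 1.05e-05) without degrader replicate 2, and called in 8 of 8 fits that left out 1 library. BCL2L11 was at 1.48, 2.06, 1.68 and 1.60 RPKM with the degrader and at 2.67, 2.25, 2.12 and 2.41 RPKM in DMSO. The groups did not overlap, but degrader replicate 2 came close to the lowest DMSO library. On the log2 scale the difference in edgeR was −0.47 ± 0.14 (adjusted p = 0.0986), and −0.58 ± 0.11 (adjusted p = 0.00121) without that replicate. DESeq2 and limma voom called BCL2L11 lower with all libraries.

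The remaining BH3-only genes were less clear. BID, which caspase-8 cleaves to link death receptors to mitochondria, was at 14.5, 4.87, 17.0 and 15.1 RPKM with the degrader and at 11.7, 11.8, 9.05 and 11.5 RPKM in DMSO. Replicate 2 held less than any DMSO library and the other 3 held more. BID differed by 0.24 ± 0.32 on the log2 scale (adjusted p = 0.718), and 0.49 ± 0.10 (adjusted p = 0.00233) without replicate 2. PMAIP1, whose product NOXA binds MCL1, was at 1.60, 2.57, 1.61 and 1.67 RPKM with the degrader and 0.993, 1.82, 1.5 and 1.21 RPKM in DMSO. BBC3 was at 1.34, 1.28, 1.54 and 2.18 RPKM with the degrader and 2.07, 2.21, 1.67 and 2.06 RPKM in DMSO. Both groups of each gene overlapped, and neither gene was called in any fit that left out 1 library. The 95% intervals of the log2 fold changes, −0.17 to 0.99 for PMAIP1 and −0.75 to 0.13 for BBC3, held 0 in both cases.

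The second comparison asked how the family stood in p300 KO cells. BCL2 was again lower, at 0.598 times its NTC level. BCL2L11 was also lower, at 0.787 times, and BMF was higher, at 1.24 times. With all 8 libraries 3 of 10 genes were called, against 17.0% of all genes tested (6.23% higher and 10.7% lower), or 1081 higher and 1863 lower, and 61 higher and 1204 lower with total count scaling. Without p300 KO replicate 1 it was 7 of 10 against 40.9% (19.1% higher and 21.8% lower). KO levels lay wholly below NTC for 3 of 10 genes, BCL2, BAK1 and BCL2L11, against 18.5% of all genes. Without p300 KO replicate 1, BAX, BBC3 and BMF were called higher and BCL2, BAK1, BCL2L11 and PMAIP1 lower. When libraries were scaled by total counts, 0 of the 10 were called in edgeR and 3 had an unadjusted p under 0.05, and without the filter on low counts BCL2 alone was called. The members' median log2 fold change was −0.13 against 0.02 over all genes, and −0.02 against 0.00 without p300 KO replicate 1.

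Of the survival genes, BCL2 was at 0.795, 1.22, 1.08 and 1.18 RPKM in the KO and at 2.04, 2.17, 1.67 and 1.55 RPKM in NTC. Every KO library was below every NTC library, and p300 KO replicate 1 was the lowest. The log2 fold change was −0.74 ± 0.14 (adjusted p = 0.00662), or −0.67 ± 0.09 (adjusted p = 4.84e-08) without that library, and the gene was called in 8 of 8 fits that left out 1 library. MCL1 was at 141, 244, 230 and 248 RPKM in the KO, against 238, 240, 230 and 221 RPKM in NTC. Apart from p300 KO replicate 1 the libraries of both groups were intermixed. Its log2 fold change of −0.06 (95% interval −0.37 to 0.24) became 0.07 (−0.03 to 0.17) without that library. BCL2L1 was at 7.49, 10.6, 11.6 and 10.3 RPKM in the KO and 11.6, 11, 10.3 and 12 RPKM in NTC. These groups overlapped too, and the log2 fold change was −0.12 (−0.34 to 0.10).

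In edgeR neither BAK1 nor BAX was called in the KO with all libraries, whereas DESeq2 (adjusted p = 0.0346) and limma voom (adjusted p = 0.00106) called BAK1 lower. BAK1 was at 19.3, 32.3, 30.8 and 32.1 RPKM in the KO and at 41.5, 38.3, 35.7 and 38.3 RPKM in NTC. The groups did not overlap. BAK1 differed by −0.38 ± 0.12 on the log2 scale (adjusted p = 0.0645) with all libraries and −0.26 ± 0.05 (adjusted p = 1.00e-04) without p300 KO replicate 1. BAX was at 32.8, 53.9, 58.2 and 51.5 RPKM in the KO and 50.0, 47.5, 51.5 and 52.1 RPKM in NTC, and its groups overlapped. The log2 fold change was 0.01 ± 0.13 (adjusted p = 0.971), −0.12 when libraries were scaled by total counts, and 0.13 ± 0.05 (adjusted p = 0.0387) without p300 KO replicate 1. The log2 ratio of BAX to BAK1, which needs no scaling between libraries, was 0.77 ± 0.10 in the KO and 0.39 ± 0.12 in NTC (SD, n = 4 each), and the ranges were apart.

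Of the BH3-only genes, BMF was at 21.9, 28.3, 27.2 and 28.2 RPKM in the KO, against 21.4, 23.0, 21.2 and 22.1 RPKM in NTC. The KO libraries other than replicate 1 lay above NTC, and replicate 1 lay among them. The log2 fold change was 0.32 ± 0.07 (adjusted p = 0.0164), and 0.36 ± 0.05 (adjusted p = 8.50e-08) without that library. The call was lost in 4 of 8 fits that left out 1 library, those without NTC replicates 1, 3 or 4 or p300 KO replicate 2, with adjusted p up to 0.0629. BCL2L11 was at 2.68, 2.92, 2.81 and 3.40 RPKM in the KO and 4.27, 3.45, 3.98 and 3.88 RPKM in NTC. The groups were apart by a small margin. For BCL2L11 this amounted to −0.35 ± 0.09 on the log2 scale (adjusted p = 0.0297), and the call held in 3 of 8 fits that left out 1 library (NTC replicate 2, p300 KO replicate 1 or p300 KO replicate 4), with adjusted p up to 0.0938 in the others.

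BBC3, a classic target of p53, was at 1.99, 2.28, 2.31 and 1.81 RPKM in the KO and 1.42, 1.71, 1.86 and 1.65 RPKM in NTC. The groups touched, since p300 KO replicate 4 lay below NTC replicate 3. The effect in edgeR on the log2 scale was 0.39 ± 0.12 (adjusted p = 0.0605), and 0.37 ± 0.12 (adjusted p = 0.00906) without p300 KO replicate 1. BBC3 was also called without p300 KO replicate 4. With all libraries DESeq2 and limma voom each called 2 of the 5 BH3-only genes higher, and 1 and 2 lower. edgeR called BMF alone higher. PMAIP1 was at 0.674, 0.538, 0.516 and 0.370 RPKM in the KO and 0.653, 0.998, 0.796 and 0.817 RPKM in NTC. Without replicate 1 the KO libraries were all below NTC, and the log2 fold change was −0.76 ± 0.23 (adjusted p = 0.00611), against −0.61 ± 0.24 (adjusted p = 0.112) with it. BID was at 5.01, 8.59, 9.54 and 8.29 RPKM in the KO and 9.24, 8.31, 8.60 and 9.57 RPKM in NTC. Its groups overlapped apart from p300 KO replicate 1, and the log2 fold change without that library was −0.01 (95% interval −0.13 to 0.12).

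**Figure D2:**
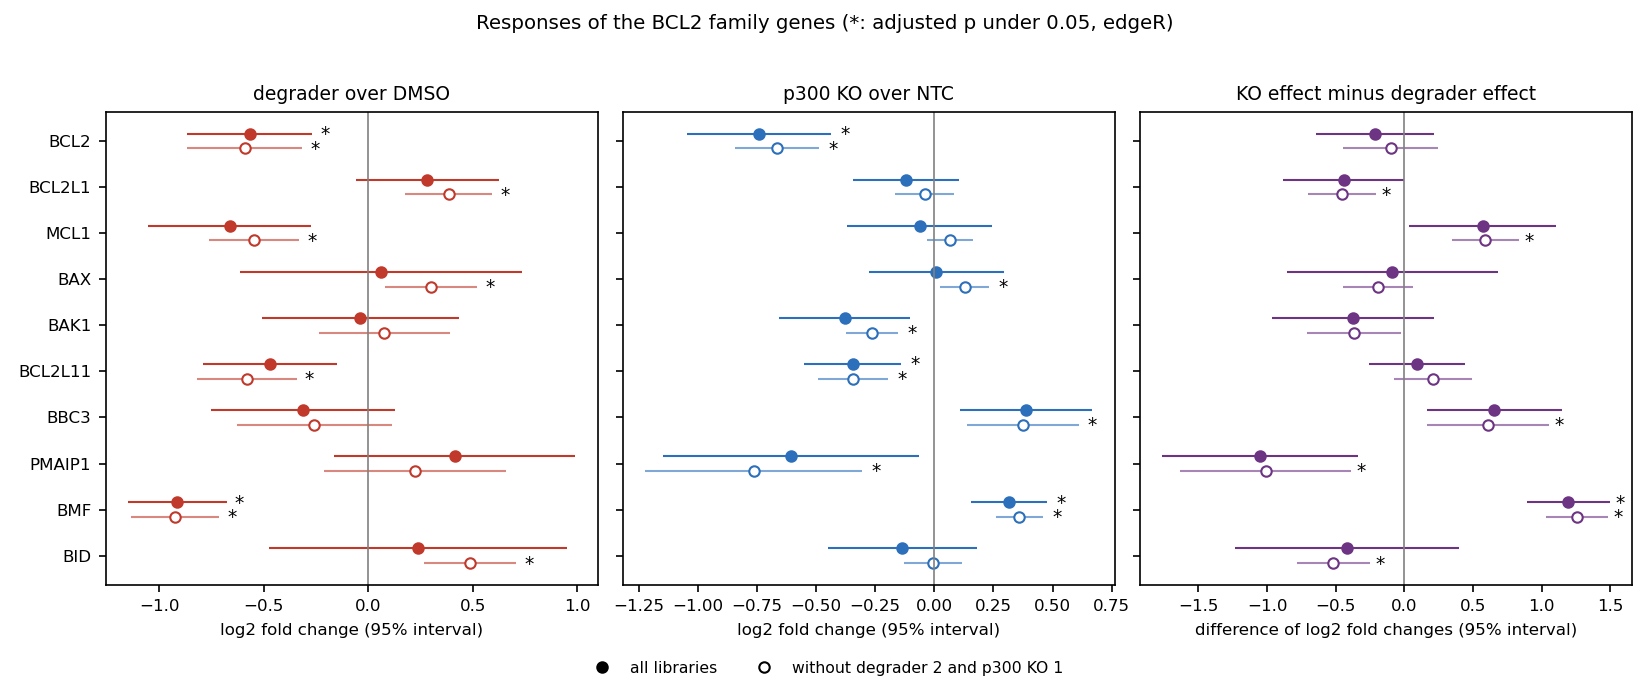
Log2 fold changes of the 10 genes (horizontal axes, with 95% intervals) for degrader over DMSO, p300 KO over NTC, and the difference of these effects; filled points use all libraries, open points leave out degrader replicate 2, p300 KO replicate 1 or both, and stars mark an adjusted p under 0.05. BMF lies at −0.91 with the degrader and at 0.32 in the KO, and its difference of 1.19 is the only one called with all libraries.

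The difference between the effects was tested as the KO effect minus the degrader effect in 1 fit over the 16 libraries. BMF was the only gene of the 10 called with all libraries, with a difference of 1.19 ± 0.14 on the log2 scale (adjusted p = 1.39e-04), where 6.58% of all genes tested were called. It was called in 16 of 16 fits that left out 1 library, with adjusted p up to 7.80e-04, and its adjusted p was 0.134 when libraries were scaled by their total counts. Among genes tested in both comparisons, 0.123% were, like BMF, called lower with the degrader and higher in the KO. BCL2, called lower in both, shares that pattern with 0.894% of genes, and its difference was −0.21 (95% interval −0.64 to 0.22).

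Without degrader replicate 2 and p300 KO replicate 1, 6 of 10 genes were called in the difference, against 32.0% of genes tested. MCL1 and BBC3 joined BMF on the side of a higher KO effect, at 0.59 ± 0.12 (adjusted p = 5.44e-04) and 0.61 ± 0.22 (adjusted p = 0.0332). BCL2L1, BID and PMAIP1 had a lower KO effect, at −0.45 ± 0.12 (adjusted p = 0.00548), −0.52 ± 0.13 (adjusted p = 0.00356) and −1.01 ± 0.30 (adjusted p = 0.013). The intervals for BCL2L11 (−0.07 to 0.50) and BCL2 (−0.45 to 0.25) held 0, and those 2 genes fell in both comparisons of these libraries. Length of exposure also differs, since the degrader acted for 6 h and the labels give no time for the KO, so time and means of p300 loss cannot be told apart.

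The balance of survival and death genes was described as the log2 ratio of the summed RPKM of the 3 survival genes to that of the other 7 genes. It was −0.28, 0.17, −0.28 and −0.34 with the degrader, against 0.25, 0.32, 0.43 and 0.41 in DMSO. The groups did not overlap, and degrader replicate 2 was the nearest to DMSO. The means were −0.18 ± 0.24 with the degrader and 0.35 ± 0.08 in DMSO (SD, n = 4 each), a difference of −0.54, or −0.65 without degrader replicate 2. In the KO the ratio was 0.83, 0.99, 0.88 and 1.05, against 0.97, 1.04, 0.97 and 0.87 in NTC. These groups overlapped, with a difference of −0.02. MCL1 made up 87.7% to 95.6% of the survival sum, so the ratio mostly sets MCL1 against BAX and BAK1. With MCL1 left out, the difference was 0.26 for the degrader and −0.14 for the KO, and with each gene given equal weight on the log2 scale it was −0.15 and −0.20, with overlapping groups in each of these cases. Without p300 KO replicate 1, the KO difference with MCL1 left out was −0.16 and the groups were apart.

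**Figure D3:**
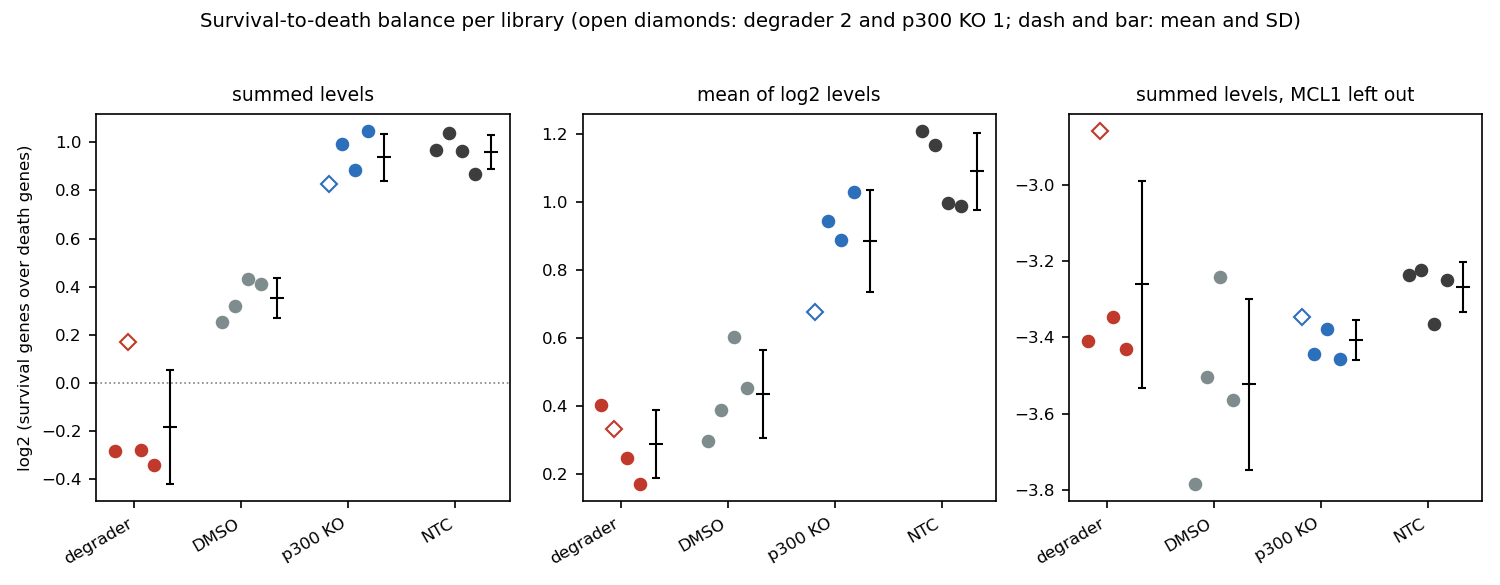
Log2 ratio of survival genes (BCL2, BCL2L1, MCL1) to death genes (the other 7) in each library by group, from summed RPKM, from the mean of log2 RPKM, and from summed RPKM without MCL1; dashes and bars are mean and SD of 4 libraries and open diamonds are degrader replicate 2 and p300 KO replicate 1. The degrader libraries lie below DMSO in the summed ratio alone, and KO and NTC overlap in all 3 panels.

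Ratios between single genes show which members moved against each other, again with no scaling between libraries. BCL2L1 relative to MCL1 was −2.98 ± 0.04 on the log2 scale with the degrader, against −3.92 ± 0.17 in DMSO (SD, n = 4 each). It ranged from −3.03 to −2.95 over all 4 degrader libraries, replicate 2 included, the smallest SD of the 14 ratios in treated cells. In the KO it was −4.42 ± 0.17 against −4.37 ± 0.12 in NTC, and the groups overlapped. BCL2L1 relative to BCL2 was 4.03 ± 0.36 with the degrader and 3.21 ± 0.17 in DMSO, and 3.22 ± 0.14 in the KO and 2.61 ± 0.26 in NTC, with groups apart in both experiments. MCL1 relative to BAK1, the pore former it restrains, was 1.67 ± 0.07 with the degrader and 2.30 ± 0.18 in DMSO, and 2.91 ± 0.03 in the KO and 2.59 ± 0.08 in NTC. The groups were apart in both experiments, lower with the degrader and higher in the KO. BMF relative to BCL2L11 was 1.19 ± 0.22 with the degrader and 1.63 ± 0.04 in DMSO, and 3.16 ± 0.13 in the KO and 2.5 ± 0.18 in NTC, again apart on opposite sides. BCL2 relative to BMF was −4.64 ± 0.11 in the KO and −3.58 ± 0.22 in NTC, while the groups overlapped in the degrader experiment. Of 14 such ratios, the ranges were apart for 5 with the degrader and for 8 in the KO, and for 8 and 11 without the mitochondria-rich library. These ratios share genes and are not independent of each other. How often ratios of other gene pairs are apart was not computed, so these counts cannot be read as particular to the family.

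**Figure D4:**
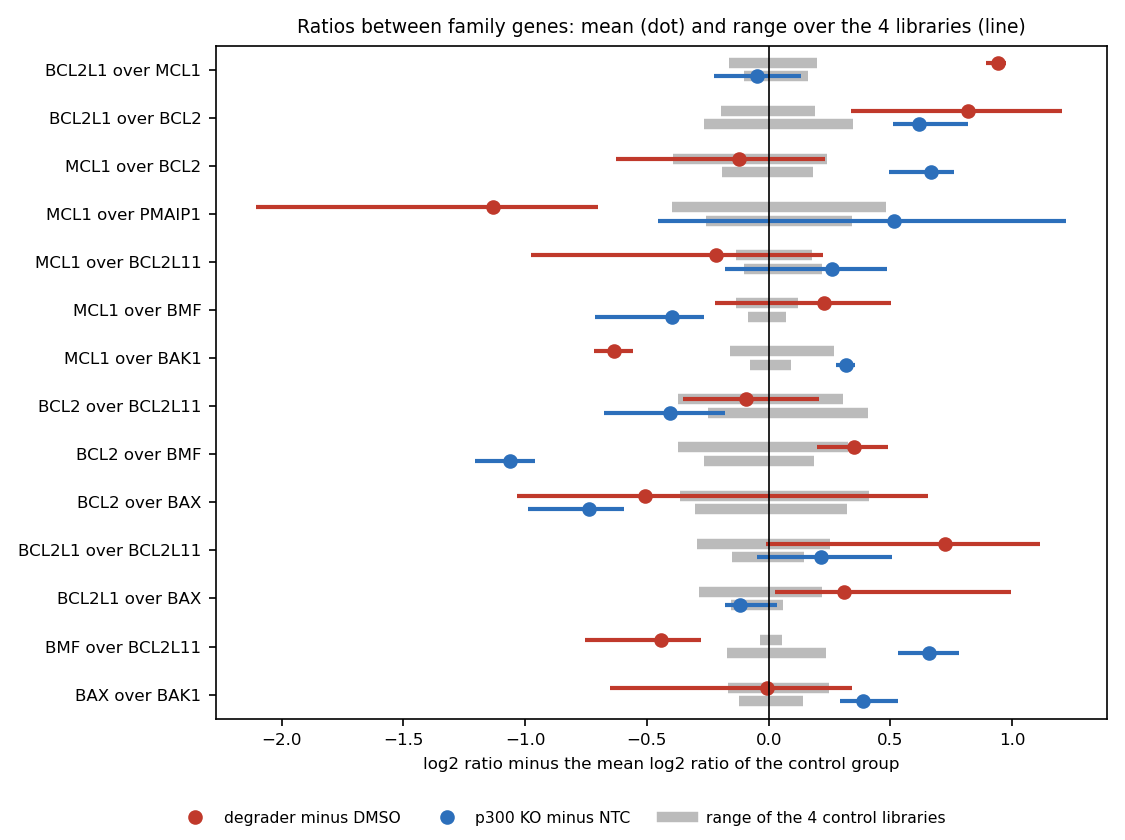
All 14 ratios between family genes, drawn as log2 ratio minus the mean of the control group (horizontal axis); dots and coloured lines are the mean and range of the 4 degrader or p300 KO libraries and grey bars the range of the 4 DMSO or NTC libraries. BCL2L1 over MCL1 lies 0.94 above DMSO and −0.05 from NTC, and BMF over BCL2L11 lies on opposite sides in the 2 experiments.

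The 10 genes lie on 8 chromosomes of GRCh38, and their positions in the count tables are those of GENCODE 29. BCL2 (ENSG00000171791, chr18:63123346-63320128) and PMAIP1 (ENSG00000141682, chr18:59899948-59904306) are on the long arm of the same chromosome, as are BAX (ENSG00000087088, chr19:48954815-48961798) and BBC3 (ENSG00000105327, chr19:47220822-47232766) on another. The others are BCL2L1 (ENSG00000171552, chr20:31664452-31723989), MCL1 (ENSG00000143384, chr1:150574551-150579738), BAK1 (ENSG00000030110, chr6:33572547-33580293), BCL2L11 (ENSG00000153094, chr2:111119378-111168447), BMF (ENSG00000104081, chr15:40087890-40108892) and BID (ENSG00000015475, chr22:17734138-17774770). Summed exon lengths ran from 2212 bases in BAK1 to 11765 in BCL2. Besides BCL2L1, exons of BMF (8.5% of bases, with BMF-AS1), BAK1 (4.1%, with GGNBP1) and BBC3 (2.5%, with MIR3190) are shared with genes on the opposite strand, of which GGNBP1 had 134 counts over the 16 libraries and the others 0.

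Further genes of the pathway were taken from lists, and log2 fold changes follow their symbols in parentheses. Over all genes, limma voom called 7616 with the degrader and 6871 in the KO, and DESeq2 called 1796 and 3962. For comparison, edgeR tested 15872 and 17350 genes. Counts from limma voom and DESeq2 below are therefore not to be set against the edgeR shares. Of 15 other family genes, 11 could be tested with the degrader and edgeR called 0, against 4.76% of all genes; limma voom called 4, DESeq2 0, and 2 had an unadjusted p under 0.05. In the KO 12 could be tested and BCL2A1, a survival gene driven by NF-kB, fell by 0.47 on the log2 scale (8.36 ± 0.27 RPKM in the KO, 12 ± 1.01 in NTC); edgeR called no other, DESeq2 4 higher and 1 lower, and limma voom 5 higher and 1 lower. That made 1 of 12 in edgeR, against 17.0% of all genes. Without the mitochondria-rich libraries, BCL2L12 (0.55) and BAD (0.54) rose and BNIP3L (−0.26) fell with the degrader, 3 of 11 against 38.5% of all genes. In the KO without replicate 1, 6 of the 12 rose, among them BNIP3 (0.57), BNIP3L (0.32) and BAD (0.21), and BCL2A1 fell, 7 of 12 against 40.9% of all genes.

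On a list of the apoptosome, the caspases and their inhibitors, 17 genes were tested. With the degrader edgeR called CASP10 alone (−0.43 ± 0.09, adjusted p = 0.0367), 1 of 17 against 4.76% of all genes, and limma voom called 8 higher and 3 lower. In the KO 3 rose and 3 fell, 6 of 17 against 17.0% of all genes, led by HTRA2 (−0.49), CASP2 (0.36), APAF1 (0.51), which forms the apoptosome, and CASP10 (−0.28). Without degrader replicate 2, 5 rose and 3 fell, 8 of 17 against 38.5%, led by CASP8 (−0.77), which cleaves BID, BIRC5 (0.58) and CASP10 (−0.45). Without p300 KO replicate 1, 5 rose and 5 fell, 10 of 17 against 40.9%, led by HTRA2 (−0.43), ENDOG (−0.43), CASP2 (0.38) and CASP10 (−0.30).

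In the death receptor pathway, edgeR called 0 of 11 tested genes with the degrader, where limma voom called 7, DESeq2 0, and 2 had an unadjusted p under 0.05. Once degrader replicate 2 was left out, RIPK1 (0.51), FADD (0.73) and FAS (0.59) rose and CFLAR (−0.31), an inhibitor of caspase-8, and TNFAIP3 (−0.47) fell, 5 of 11 against 38.5% of all genes. In the KO, TNFRSF10C (0.61) and RIPK1 (0.32) rose, 2 of 12 against 17.0%, and 5 of 12 rose without replicate 1, against 40.9% called, led by TNFRSF10B (0.31), RIPK1 (0.36), TNFRSF10C (0.42) and TNFRSF10D (0.72). Of 19 tested regulators of the family, edgeR called 0 with the degrader, where limma voom called 13, DESeq2 1, and 4 had an unadjusted p under 0.05. Over all genes limma voom called 7616 in that comparison. FOXO3 (−1.08) and FOXO1 (−1.25), forkhead factors known to activate BCL2L11, fell with the degrader when replicate 2 was left out, as did ATF5 (−0.58), while CUL3 (0.51) rose. The count was then 7 higher and 6 lower, 13 of 19 against 38.5% of all genes. In the KO, MYC (−0.93) fell and ATF5 (0.59), DDIT3 (0.66) and CREB1 (0.33) rose, 4 of 19 against 17.0%. Without replicate 1 the count was 9 higher and 5 lower, 14 of 19 against 40.9%, led by MYC (−0.85), ATF5 (0.55), DYNLL1 (0.31) and FOXO3 (−0.30). DYNLL1 encodes a dynein light chain known to bind BIM. ATF5 (0.86 ± 0.22, adjusted p = 0.0272) and DDIT3 (0.88 ± 0.20, adjusted p = 0.0147) were the regulators called in the difference with all libraries.

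The genes whose levels most resembled those of MCL1, BCL2 and BMF were sought among 9180 genes over the 14 libraries other than degrader replicate 2 and p300 KO replicate 1, by Pearson's r of log2 CPM. For MCL1 they were HNRNPLL (r = 0.996), OTUB2 and ABHD4, for BCL2 they were CYTIP (0.979), XYLT1 and TBL1X, and for BMF they were ZBTB7B (0.996), HNRNPLL and H6PD. The libraries fall into 2 experiments at different levels, which all these correlations share. After the group means were removed, r was 0.940 for ZBTB7B with BMF, 0.313 for HNRNPLL and 0.325 for H6PD with BMF, 0.875 to 0.889 for the 3 genes named for MCL1 and 0.567 to 0.691 for those named for BCL2.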

How the data were processed

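Counts were analysed for 16 RNA sequencing libraries of NCI-H929 cells, 4 per group, grouped by their titles. The deposited values are whole-number counts per gene, made by the authors before deposit; the submitters' processing notes name STAR 2.5.2b, Trimmomatic 0.36, DESeq2 1.16.1, featureCounts (Subread 1.5.2) and GRCh38. Strand use, multi-mapping reads and the annotation release are not given in the labels or files. Symbols were taken for 40907 of 57500 genes, and 54773 of the 56898 identifiers found in GENCODE 29 (96.3%) have the same position there.

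Each comparison was fitted on its own 8 libraries with edgeR 4.0.16 in R 4.3.3 (filterByExpr, TMM, quasi-likelihood test on group), and the difference of effects on all 16. The SE is the absolute log2 fold change divided by the square root of F, and a gene was called where its Benjamini-Hochberg adjusted p over all genes tested was under 0.05. Levels are RPKM scaled over 16 libraries, so they can differ slightly from the fitted fold changes. A count of 0 allows up to 3 counts, or 0.13 to 0.238 CPM by library, and these limits cover counting error only. The intervals of log2 fold changes rest on the SE defined above, which also includes the spread between libraries. No 2 libraries agreed within sampling noise: chi-square per degree of freedom was at least 2.74. Scripts were tested on simulated data. Alternatives were DESeq2 1.42.0, limma 3.58.1 voom with sample weights, other scalings and filters, a replicate block and leaving out each library.

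The 10 genes, the further lists and the settings were chosen with earlier results of these data known. Named beside the 10 are, per list and comparison, up to 4 called genes with the smallest p, EP300, and the 3 genes most like MCL1, BCL2 and BMF in log2 CPM (pseudocount 0.5, mean of at least 3). TNFAIP3 falls outside that rule and was named after its values were seen. A further gene that the rule names is not reported here. Promoter sequences are RefSeq's (GRCh38.p14); MCL1 is not shown.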

Additional observations from a re-analysis of the deposited data

Results flagged for a closer look

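The sets checked were each gene in each group, and the survival-to-death ratio in each group, 44 sets of 4 libraries. Of these sets, 6 held a library far from the other 3. For a single set chance alone gives this in about 5% of cases. The sets share libraries, and the ratio is built from the same genes, so they are not independent. The count of 6 can therefore not be set against that rate. All but the set with DMSO replicate 3 were flagged for degrader replicate 2 or p300 KO replicate 1. Degrader replicate 2, the library with 64.87% mitochondrial counts, was the lowest of its group for BAX, at 21.74 RPKM, and the highest for PMAIP1, at 2.567 RPKM, and for the log2 survival-to-death ratio, at 0.168. The library of p300 KO replicate 1, with 47.74% mitochondrial counts, was the lowest of its group for MCL1, at 141.2 RPKM, and for BAK1, at 19.29 RPKM. DMSO replicate 3 was the lowest of its group for BID, at 9.05 RPKM. The part of the mitochondrial share in these values was not tested.

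BMF was picked out because its effects differed between the experiments, lower with the degrader and higher in the p300 KO. The difference of the log2 fold changes was 1.1932 (adjusted p = 1.39e-04, edgeR).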

How the results depend on the processing

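The degrader comparison called 755 genes and 2 of the 10 family genes. It called 164 and 0 with total count scaling, 394 and 1 without the low count filter, 1796 and 4 with DESeq2, 7616 and 7 with limma voom with sample weights, and 197 to 6278 and 1 to 7 with 1 library left out. The KO comparison called 2944 genes and 3 family genes, against 1265 and 0 with total count scaling, 1 family gene without the filter, 5 with DESeq2, 6871 and 6 with limma voom, and 1542 to 7246 and 1 to 7 with 1 library left out. The difference called 1189 genes and 1 family gene, against 319 and 0 with total count scaling, 585 genes without the filter, 2095 and 2 with DESeq2, 6835 and 6 with limma voom, 766 to 4611 and 1 to 4 with 1 library left out, and 5901 and 6 without both mitochondria-rich libraries. The highest gene counts among single leave-outs came without p300 KO replicate 1 for the KO, and without degrader replicate 2 for the degrader and the difference. Total count scaling moved the median log2 fold change of all genes by −0.14 for the degrader and −0.16 for the KO. The share of calls that were higher was then 11.6% against 34.4%, and 4.8% against 36.7%. Relative to that median BMF was at −0.96 and −0.95 with the degrader, and at 0.29 and 0.30 in the KO, under TMM and total counts.

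Whether replicate numbers pair the samples was not settled. Same-numbered deviations from the group means correlated at −0.023, −0.454, −0.485 and 0.167 in the degrader experiment. In the KO experiment they correlated at −0.193, 0.033, −0.193 and −0.021, and in each experiment 0 of 4 samples correlated best with its own number. The group means included degrader replicate 2 and p300 KO replicate 1, which lie far from their group mates and shape the deviations of the others. The check could therefore not exclude pairing. With the replicate block, 24, 1304 and 715 genes and 0, 1 and 1 family genes were called for the degrader, the KO and the difference.

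Some uncalled log2 fold changes turned in sign. BAX with the degrader was −0.032 with the replicate block, and −0.037 to 0.299 with 1 library left out. BAK1 with the degrader was 0.006 without the filter, 0.024 with limma voom and −0.176 to 0.077 with 1 library left out. MCL1 in the KO was 0.055 with limma voom and −0.125 to 0.066 with 1 library left out. BAX in the KO was −0.118 with total counts, −0.017 without the filter, −0.011 with the replicate block and −0.068 to 0.129 with 1 library left out, and its difference was −0.346 to 0.064. The survival-to-death difference was −0.146 (degrader) and −0.205 (KO) from the mean of log2 levels, 0.262 and −0.138 with MCL1 left out, and −0.654 to −0.484 and −0.059 to 0.014 with 1 library left out. The cause of these changes was not tested. The lowest counts per library were those of PMAIP1 (19 to 80) and BBC3 (22 to 185).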
